A study of Mus musculus with 2 samples.

Results

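The genes described here encode the soluble glutathione S-transferases (Gst), the UDP-glucuronosyltransferases (Ugt) and the cytosolic sulfotransferases (Sult). Members were chosen by symbol alone: every protein-coding gene whose GENCODE M21 symbol begins with Gst plus a class letter and a digit, with Ugt1, Ugt2 or Ugt3, or with Sult plus a digit. This gave 64 genes, of which 63 had a row in both gene tables (22 Gst, 20 Ugt and 21 Sult), out of 21474 protein-coding and 43346 mouse genes with a row. Ugt2a1 had none and carries no value here.

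These enzymes carry out the conjugation step of detoxification, in which a reactive or fat-soluble compound is joined to a polar group and can then be exported in bile or urine. Gst enzymes add glutathione, Ugt enzymes of the endoplasmic reticulum add glucuronic acid from UDP-glucuronic acid, and Sult enzymes transfer sulfate from PAPS (3′-phosphoadenosine-5′-phosphosulfate). In adult liver all 3 families are prominent in hepatocytes, while the liver before birth is mainly a blood-forming organ with immature hepatocytes.

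The series holds 1 group of 2 libraries, from the livers of C57BL/6J wild-type mouse embryos at day 14 of gestation, each from littermates of both sexes pooled together. Polyadenylated RNA was sequenced as stranded read pairs, and the labels number the libraries as biological replicates 1 and 2. Both carry the same donor entry and no second condition was sampled, so the SDs and p-values below measure only the spread between these libraries, which may be technical. In such bulk RNA, fewer cells of a type and less RNA per cell cannot be told apart.

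The libraries held 100477392 expected counts in replicate 1 and 154601605 in replicate 2. All 10 hepatocyte markers were at 10 TPM (a transcript level scaled by length and to the same total in each library) or more in both libraries, with Alb at 9112 and 10440 TPM and Afp at 6698 and 7790 TPM. Erythroid genes summed to 203582 in replicate 1 and 185683 TPM in replicate 2. Markers of skeletal muscle summed to 111 in replicate 1 and 15.3 TPM in replicate 2, and all 7 passed the test for a higher level in replicate 1. Cholangiocyte markers summed to 9.52 and 5.28 TPM, kidney markers to 0.06 and 0.02 TPM and gut markers to 11.4 and 11.5 TPM, the last mostly Fabp2 (8.73 and 8.70 TPM). Of the other gut markers, Lgals4 was at 2.32 and 2.48 TPM, Vil1 at 0.33 and 0.31 TPM, and Sis and Cdx2 at 0 TPM in both.

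Gst genes made up most of the conjugation transcripts. The 63 members summed to 832 in replicate 1 and 975 TPM in replicate 2 (904 ± 101, SD, n = 2). TPM ran higher in replicate 2 for genes in general. Among genes with at least 100 counts, the median log2 TPM ratio, replicate 1 over replicate 2, was -0.15, and -0.23 among such members. The Gst genes held 90.7% and 90.6% of the members' summed TPM, the Ugt genes 8.20% and 8.44%, and the Sult genes 1.08% and 0.979%. In expected counts, which are not divided by transcript length, the shares were 77.1% and 76.8% for Gst, 21.5% and 21.9% for Ugt and 1.45% and 1.35% for Sult. The order of the families was the same on both scales. The main transcript of the highest Ugt gene, Ugt2b34, has 3051 bases, and that of the highest Gst gene, Gstp1, has 757.

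A threshold of 1 TPM in both libraries was passed by 27 of 63 members (42.9%), against 50.6% of all protein-coding genes. The families differed widely under that total, with 18 of 22 Gst, 6 of 20 Ugt and 3 of 21 Sult genes past it. At 10 TPM the members numbered 12 (19.0%, against 22.9% of protein-coding genes), of which 11 were Gst and 1 was Ugt2b34. At 100 TPM there were 2, Gstp1 and Gstm5 (3.17%, against 2.77%). A count of 0 in both libraries was found for 9 members (14.3%, against 18.8%). The median member stood at 0.40 and 0.41 TPM, against 1.17 and 1.20 TPM for the median protein-coding gene, and the family medians were 11.6 and 12.9 TPM for Gst, 0.22 and 0.34 TPM for Ugt and 0.01 and 0.01 TPM for Sult.

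**Figure D1:**
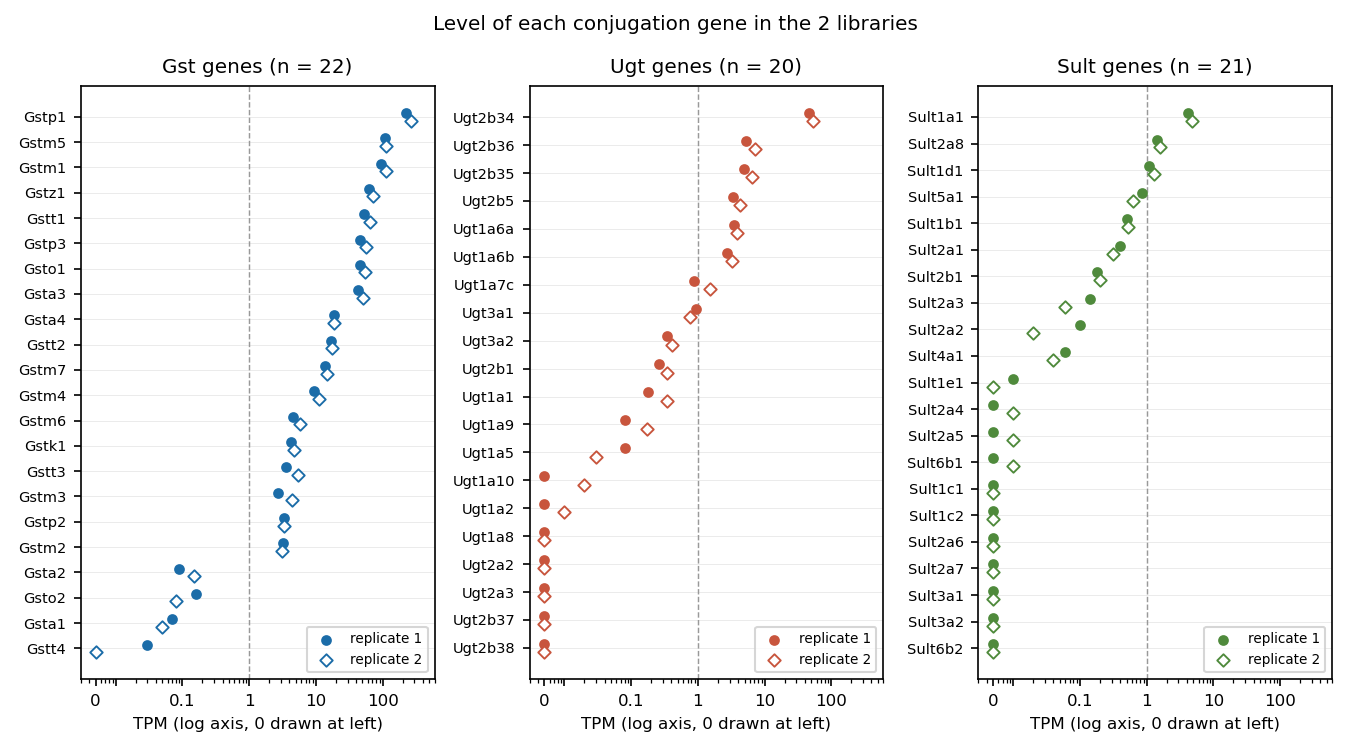
Level of each of the 63 members in TPM on a log axis, one panel per family, with replicate 1 as filled circles and replicate 2 as open diamonds; values of 0 are drawn at the left edge and the dashed line marks 1 TPM. Most Gst genes lie to the right of that line, while most Ugt and Sult genes lie to its left.

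Among the members with a mean of at least 1 TPM, neighbours in the order of levels often had overlapping values. Overlap was judged across both libraries, and TPM ran higher in replicate 2 in general, so overlapping genes can still keep their order within each library. Gstz1 was above Gstt1 in each, at 62.7 against 52.6 TPM in replicate 1 and 72.2 against 64.9 TPM in replicate 2. Gstp3 and Gsto1 changed order, at 45.2 and 46.0 TPM in replicate 1 and 56.0 and 55.1 TPM in replicate 2. Of the 27 neighbouring pairs formed by these 28 genes, 9 had values in the 2 libraries that did not overlap and 18 had values that did. Gstp1 stood alone at the top, and Gstm5 and Gstm1 followed with overlapping values. A run of genes from Gstz1 through Gstt1, Gstp3, Gsto1 and Ugt2b34 to Gsta3 had each neighbour overlapping the next. Gsta4, Gstt2, Gstm7 and Gstm4 each stood apart from the next gene below.

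**Figure D2:**
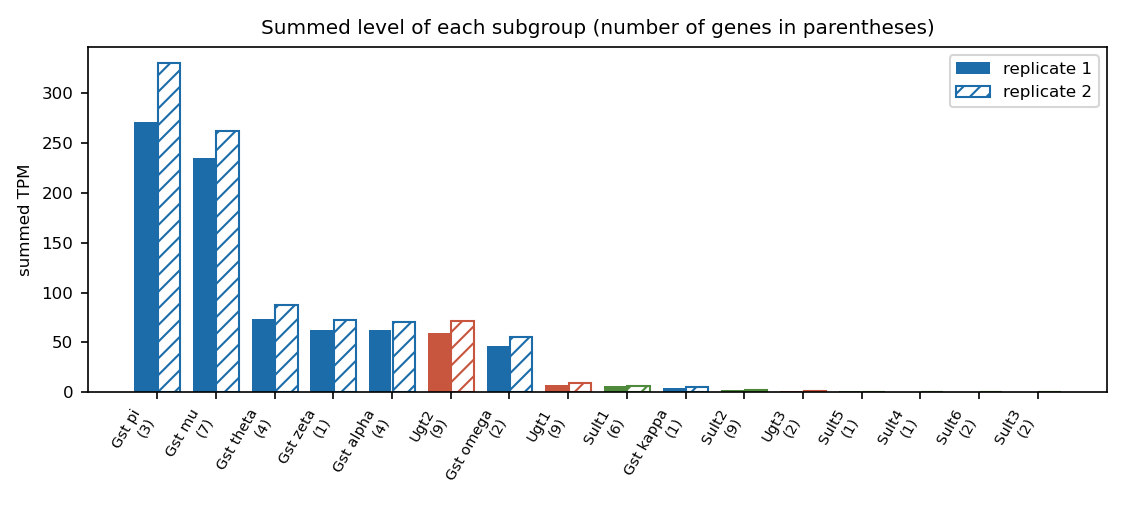
Summed TPM of each subgroup, with replicate 1 as solid and replicate 2 as hatched bars and the number of genes in parentheses. Gst pi and Gst mu are the tallest pairs in both libraries, and Ugt2 is the tallest of the Ugt and Sult subgroups.

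The pi class had the highest summed TPM of the subgroups, at 271 in replicate 1 and 330 TPM in replicate 2. In expected counts the order was another one: mu held 26.01% and 25.4% of the members' counts, Ugt2 19.1% and 19.5% and pi 18.1% and 18.7%. It has 3 genes within 24.2 kb of chromosome 19 (chr19:4035407-4059569, GRCm38). Gstp1, an abundant hepatic transferase and the highest of all members, was at 223 in replicate 1 and 271 TPM in replicate 2 (247 ± 34.0, SD, n = 2), and ranked 244th among protein-coding genes. The interval the authors deposited for its TPM ran over 218 to 225 in replicate 1 and over 267 to 273 in replicate 2, so that the gap between the libraries was wider than either interval. Part of that gap was shared by genes in general. The log2 TPM ratio of Gstp1, replicate 1 over replicate 2, was -0.28, against a median of -0.15 over all genes with at least 100 counts. Gstp3 was at 45.2 in replicate 1 and 56.0 TPM in replicate 2. Gstp2, a close copy of Gstp1, was at 3.32 and 3.31 TPM, which is 1.49% and 1.22% of the Gstp1 level.

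The start of the coding sequence is shown because it holds many of the bases by which a read from Gstp2 can be told from one of Gstp1. The coding sequences of Gstp2 and Gstp1 are 98.1% identical, with 12 differences in 633 bases, while Gstp3 is 73.0% identical to Gstp1. Below are coding bases 1 to 90, counted from the start codon, from the GENCODE M21 transcripts on the minus strand of chromosome 19. Capitals mark bases that differ from Gstp1, and, in Gstp1, those that differ from Gstp2; there are 6 between Gstp2 and Gstp1 and 13 between Gstp3 and Gstp1.
Gstp1: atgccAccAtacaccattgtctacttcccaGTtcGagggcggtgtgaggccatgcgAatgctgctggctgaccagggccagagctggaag
Gstp2: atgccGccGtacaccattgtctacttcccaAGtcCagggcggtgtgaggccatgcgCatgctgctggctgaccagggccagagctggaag
Gstp3: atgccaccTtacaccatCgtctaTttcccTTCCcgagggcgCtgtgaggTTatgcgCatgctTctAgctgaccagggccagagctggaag

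The older deposited files, on build mm9, gave a different ratio for this pair. There Gstp2 stood at 4.65 and 5.17 RPKM (a read level scaled by gene length and library size) against 18.9 and 21.6 RPKM for Gstp1, which is 24.6% and 24.0% of it. The 2 RPKM columns are not tied to a library by the file. Relative to its TPM, the RPKM of Gstp2 was 8.15-fold above the median of the 28 members with a mean of 1 TPM or more. The next farthest was Ugt1a6a, 3.12-fold above.

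The mm9 junction list, which counts reads spanning each intron with both replicates together, gives the reads of both genes intron by intron. At intron 1, 11 reads were listed for Gstp2 and 18816 for Gstp1, so that Gstp2 held 0.0584% of both (exact 95% interval 0.0292 to 0.105). At intron 2 there were 19 reads for Gstp2 and 15965 for Gstp1 (0.119%, 0.0716 to 0.186), and at intron 5 there were 7 and 5605 (0.125%, 0.0502 to 0.257). Within up to 50 coding bases on each side of these 3 junctions the genes differ at 5, 6 and 5 positions. Introns 1 and 2 have 1 and 37 coding bases before them, so their stretches overlap and share differences. Bases before the start codon were not compared. At intron 3, by contrast, 2585 reads were listed for Gstp2 and 20248 for Gstp1 (11.3%, 10.9 to 11.7). Intron 4 had 850 and 4181 reads (16.9%) and intron 6 had 366 and 701 (34.3%, 31.5 to 37.2). Around these 3 the genes differ at 0, 1 and 0 positions. The share of Gstp2 was thus under 0.2% at the junctions flanked by 5 or 6 differences and above 10% at those flanked by none or 1. Gstp3, the less similar gene, had 2077 to 4136 reads at each of its 5 annotated junctions.

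**Figure D3:**
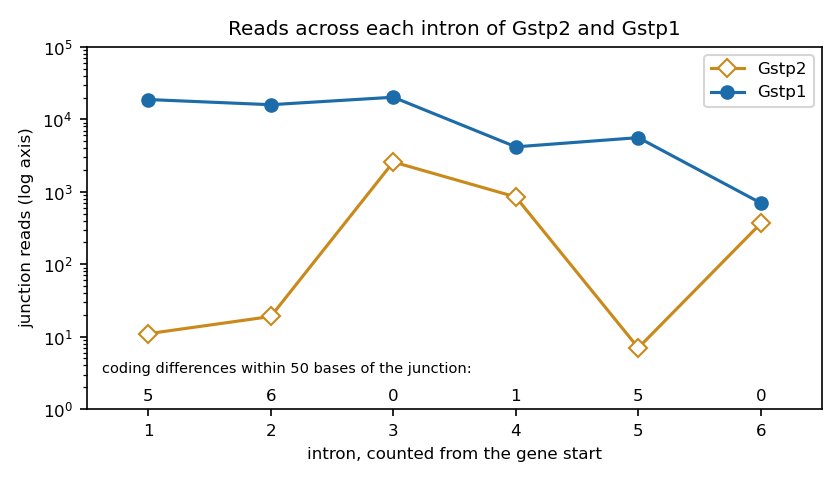
Reads listed across each intron of Gstp2 (open diamonds) and Gstp1 (filled circles) in the mm9 junction list, both replicates together, on a log axis; the digits above the axis give the coding differences between the genes within 50 bases of the junction. The Gstp2 line drops to 11, 19 and 7 reads at introns 1, 2 and 5 and lies at 366 to 2585 reads at introns 3, 4 and 6.

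The stretches upstream of the pi class genes were also compared, since their levels differ while Gstp2 and Gstp1 are near copies. The 120 bases before the transcription start, from RefSeq on GRCm38.p6 and the minus strand, are given with the motif TGAGTCA in capitals, the binding sequence of AP-1 factors, searched on both strands. The windows are chr19:4037913-4038032, chr19:4042222-4042341 and chr19:4059448-4059567. In GENCODE M21 the genes begin farther upstream, at 4037985 for Gstp1, 4046023 for Gstp2 and 4059569 for Gstp3. By that annotation the windows of Gstp2 and Gstp3 lie inside the gene, and that of Gstp1 in part.
Gstp1: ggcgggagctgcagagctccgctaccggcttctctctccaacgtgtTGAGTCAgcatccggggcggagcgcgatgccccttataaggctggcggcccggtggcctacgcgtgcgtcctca
Gstp2: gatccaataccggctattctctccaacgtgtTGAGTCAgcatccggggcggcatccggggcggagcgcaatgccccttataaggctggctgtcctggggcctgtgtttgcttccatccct
Gstp3: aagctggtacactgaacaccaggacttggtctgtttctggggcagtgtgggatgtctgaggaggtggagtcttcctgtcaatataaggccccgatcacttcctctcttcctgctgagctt
The motif began at position -74 relative to the start of Gstp1 and at -89 relative to that of Gstp2, and these letters were not in the window of Gstp3. It occurred in 5.20% of all 32851 promoters in the table and in 8 of 66 member promoters (12.1%), in a window of 300 bases each. The Gstp2 and Gstp1 windows were 65.2% identical, and those of Gstp3 and Gstp1 49.2%.

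The mu class summed to 236 in replicate 1 and 262 TPM in replicate 2, and all 7 of its genes, which lie within 149 kb of chromosome 3, passed 1 TPM in both. Gstm5 was at 108 and 112 TPM (110 ± 3.25, SD, n = 2), and Gstm1, the classical mu class enzyme of mouse liver, at 94.0 and 111 TPM (102 ± 11.8). Together these 2 genes held most of the class, with shares of 45.8% and 42.9% for Gstm5 and 39.9% and 42.2% for Gstm1. Gstm7 was at 13.7 and 14.9 TPM, Gstm4 at 9.43 and 11.0 TPM and Gstm6 at 4.50 and 5.75 TPM. Gstm3 was at 2.75 and 4.41 TPM, and Gstm2, the lowest by its mean, was at 3.24 and 3.16 TPM. The coding sequences of the class were 68.0% to 89.5% identical, the closest pair being Gstm3 and Gstm1.

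Zeta, theta and omega enzymes followed. Gstz1, which as maleylacetoacetate isomerase acts in tyrosine breakdown, was at 62.7 in replicate 1 and 72.2 TPM in replicate 2. Gstt1, a theta class enzyme that acts on small halogenated compounds, was at 52.6 and 64.9 TPM, and Gstt2 at 16.9 and 17.8 TPM. Gstt3 was at 3.59 and 5.42 TPM. Gstt4 was the lowest of the class, with 3 counts in replicate 1 and 0 in replicate 2. Gsto1, an omega class enzyme that reduces dehydroascorbate, was at 46.0 and 55.1 TPM and held over 99% of its class (99.7% and 99.9%). Its neighbour Gsto2 was at 0.16 and 0.08 TPM from 21 and 14 counts, and the 2 genes lie side by side on chromosome 19. Gstk1, the kappa class enzyme of mitochondria and peroxisomes, was at 4.29 and 4.77 TPM.

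The alpha class, prominent in adult liver, was carried by 2 of its 4 genes. Gsta3, which in the mouse conjugates the epoxide of aflatoxin, was at 43.4 in replicate 1 and 50.9 TPM in replicate 2. Gsta4, which acts on 4-hydroxynonenal from oxidized lipid, was at 18.7 and 18.9 TPM. Gsta2 was at 0.09 and 0.15 TPM and Gsta1 at 0.07 and 0.05 TPM, from 7 and 17 counts and from 4 and 4 counts. Gsta2 and Gsta1 are 97.5% identical in coding sequence, and their summed level was far below that of either other gene.

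The Ugt2 genes stood above the Ugt1 genes. Ugt2 summed to 59.5 in replicate 1 and 71.9 TPM in replicate 2, Ugt1 to 7.52 and 9.25 TPM and Ugt3 to 1.27 and 1.17 TPM. Ugt2b enzymes glucuronidate steroids and bile acids, and 9 Ugt2 genes with a row lie within 592 kb of chromosome 5. Ugt2b34 was at 45.6 and 53.8 TPM (49.7 ± 5.81, SD, n = 2) and held 76.7% and 74.9% of the subgroup. Ugt2b36 was at 5.33 and 7.13 TPM, Ugt2b35 at 4.90 and 6.37 TPM and Ugt2b5 at 3.37 and 4.22 TPM. The other 5 were under 1 TPM. Ugt2b1 was at 0.26 and 0.34 TPM, Ugt2a3 had 1 count in each library, and Ugt2a2, Ugt2b37 and Ugt2b38 had 0. For Ugt2b38, whose coding sequence is 97.0% identical to that of Ugt2b5, the mm9 table gave 13.5% and 15.4% of the RPKM of Ugt2b5, while the junction list held 1 read for Ugt2b38 and 982 for Ugt2b5. Ugt3a1 was at 0.93 and 0.76 TPM and Ugt3a2 at 0.34 and 0.41 TPM; their human counterparts use sugars other than glucuronic acid.

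The Ugt1 locus is built differently from the other clusters. On chr1:88055388-88220002 (GRCm38), 9 genes each have a first coding exon of their own, called the first exon here. They splice it to the same exons 2 to 5, so the substrate-binding part of each enzyme is its own and the sugar-binding part is common. The annotated starts of Ugt1a6a and Ugt1a6b lie farther upstream than that exon. In the coding sequence, 849 to 870 bases come before that splice and the 738 bases after it are identical in all 9. A read that lies wholly inside the common exons therefore has the same bases whichever of the 9 genes it came from, and the first exons hold the bases that differ. The last 30 coding bases of 5 first exons are shown in lower case and the first 30 bases of common exon 2 (chr1:88215044-88215073, plus strand) in capitals, from GENCODE M21 transcripts.
Ugt1a6a: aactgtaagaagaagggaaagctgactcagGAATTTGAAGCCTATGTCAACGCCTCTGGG
Ugt1a6b: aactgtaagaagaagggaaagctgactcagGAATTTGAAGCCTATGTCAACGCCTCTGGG
Ugt1a7c: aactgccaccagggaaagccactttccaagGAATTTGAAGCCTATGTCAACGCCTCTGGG
Ugt1a9: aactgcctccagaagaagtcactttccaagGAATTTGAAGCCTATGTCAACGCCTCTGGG
Ugt1a1: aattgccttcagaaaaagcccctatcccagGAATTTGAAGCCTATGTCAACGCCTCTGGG
The first exons of Ugt1a6a and Ugt1a6b are the same over these 30 bases, so a short overhang there does not tell them apart, and differ at 26 positions over the whole coding part (97.0% identical). Those of Ugt1a1 and Ugt1a6a are 58.1% identical.

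By TPM, Ugt1a6a and Ugt1a6b, whose enzymes act on planar phenols, led the locus. Ugt1a6a was at 3.53 in replicate 1 and 3.90 TPM in replicate 2, Ugt1a6b at 2.78 and 3.27 TPM, and Ugt1a7c at 0.87 and 1.51 TPM. Ugt1a1, the enzyme that conjugates bilirubin, was at 0.18 and 0.34 TPM, and Ugt1a9 at 0.08 and 0.17 TPM. Ugt1a5 was at 0.08 and 0.03 TPM, Ugt1a10 at 0 and 0.02 TPM and Ugt1a2 at 0 and 0.01 TPM, and Ugt1a8 had 0 counts. The posterior SD that the authors deposited for each count, their measure of how uncertainly fragments were assigned, was 12.7% and 4.83% of the count for Ugt1a7c, 19.2% and 10.5% for Ugt1a1, 31.1% and 16.6% for Ugt1a9, and 32.9% and 41.6% for Ugt1a5. For Gstp1 it was 0.0504% and 0.0370%. In all, 9 members had a posterior SD of 5% of their count or more in either library: these 4, Ugt1a10, Ugt1a2, Gsta2, Gsta1 and Sult2a2.

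Reads spanning the splice gave a second readout. The mm9 list held 198 reads into common exon 2. Of these, 101 came from the first exon of Ugt1a6a (51.0%, exact 95% interval 43.8 to 58.2), against 46.9% and 42.2% of the Ugt1a TPM. Ugt1a6b had 58 reads (29.3%, 23.1 to 36.2), against 37.0% and 35.4% of the TPM, and Ugt1a7c had 24 (12.1%, 7.92 to 17.5), against 11.6% and 16.3%. Ugt1a1 had 4 reads (2.02%, 0.553 to 5.09) and Ugt1a9 had 3 (1.52%, 0.314 to 4.36). Ugt1a2, Ugt1a5, Ugt1a8 and Ugt1a10 had 0 of 198, which allows a share of up to 1.52% each when 3 reads are taken as the limit and has an exact upper bound of 1.85%. Unannotated junctions with 13 reads each, split 4 and 9 by replicate field in both, end 2 bases before common exon 2. They are not among the 198. The order of the 5 genes with reads was the same by TPM and by junction reads, and the intervals of Ugt1a6a and Ugt1a6b did not overlap. The mm9 gene table placed Ugt1a8 at 1.24 and 0 RPKM and Ugt1a10 at 0 and 1.07 RPKM, although neither had a read from its first exon. It placed Ugt1a6b at 0.213 and 0.364 RPKM and Ugt1a6a at 1.84 and 2.37 RPKM, a wider gap than by TPM or by junction reads. Intervals and limits here cover counting error only.

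**Figure D4:**
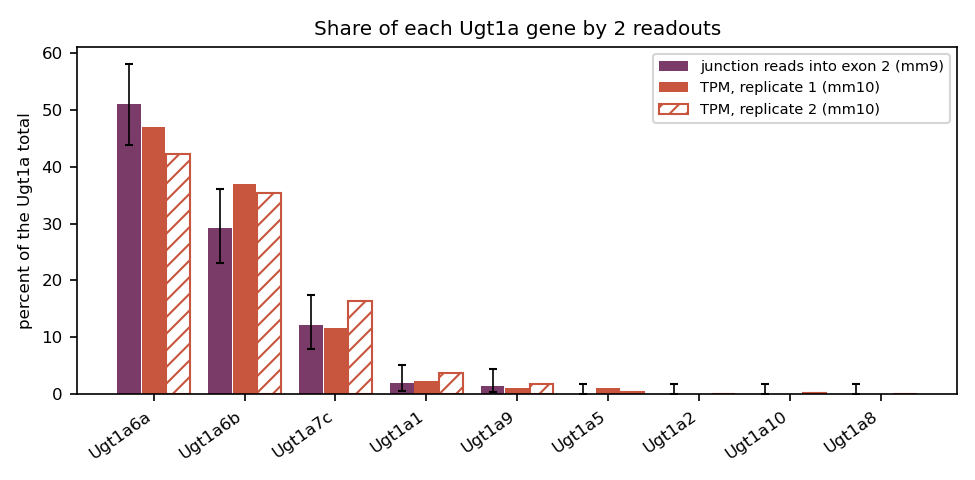
Share of each Ugt1a gene in the locus, in percent, by reads from its first exon into common exon 2 (solid purple bars, mm9, both replicates together, error bars exact 95% intervals), by TPM in replicate 1 (solid) and by TPM in replicate 2 (hatched). Ugt1a6a, Ugt1a6b and Ugt1a7c lead in all 3 readouts, and Ugt1a1 stays under 5% in each.

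Sulfotransferases were the least abundant family. Sult1 summed to 5.82 in replicate 1 and 6.65 TPM in replicate 2, and Sult2 to 2.27 and 2.21 TPM. Sult1a1, the main phenol sulfotransferase, was at 4.21 and 4.86 TPM and held 72.3% and 73.1% of Sult1. Sult1d1, which in the mouse acts on catecholamines, was at 1.09 and 1.27 TPM, and Sult1b1, which acts on thyroid hormone, at 0.51 and 0.52 TPM. The estrogen sulfotransferase Sult1e1 had 1 count in replicate 1 and 0 in replicate 2. Sult1c2 had 0 counts in replicate 1 and 1 in replicate 2, and Sult1c1 had 0 in both.

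Within Sult2, whose members sulfate steroids and bile acids, Sult2a8 alone passed 1 TPM, at 1.45 in replicate 1 and 1.60 TPM in replicate 2. Sult2a1 was at 0.40 and 0.31 TPM, Sult2b1 at 0.18 and 0.20 TPM, Sult2a3 at 0.14 and 0.06 TPM and Sult2a2 at 0.10 and 0.02 TPM. Sult2a4 and Sult2a5 had 0 counts in replicate 1 and 1 count in replicate 2, and Sult2a6 and Sult2a7 had 0 in both. Sult5a1 was at 0.85 and 0.63 TPM, and Sult4a1, a brain enzyme, at 0.06 and 0.04 TPM. Sult6b1 had 0 and 3 counts, Sult6b2 had 1 count in each library, and Sult3a1 and Sult3a2 had 0. For the 9 members with 0 counts in both libraries, namely Sult1c1, Sult2a6, Sult2a7, Sult3a1, Sult3a2, Ugt1a8, Ugt2a2, Ugt2b37 and Ugt2b38, 3 counts would be worth 0.0120 to 0.0406 TPM in replicate 1 and 0.00832 to 0.0282 TPM in replicate 2.

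One of the motifs searched was found in both Ugt and Sult promoters but in no Gst promoter. The sequence TTAATNATT was found on either strand in 13 of 66 member promoters (19.7%), against 1.47% of all 32851 promoters of the same length. All 13 belong to Ugt or Sult genes: it was in 8 of 18 Ugt promoters, in 5 of 20 Sult promoters and in 0 of 28 Gst promoters. Several of these genes are copies of one another, so the 13 are not independent. Matches began at positions -243 to -27 relative to the start. Of the 13 genes only Sult1d1, Ugt2b35 and Ugt2b5 passed 1 TPM in both libraries. The motif was thus found in 3 of 32 promoters of members past that level and in 10 of 34 promoters of the others. Gst promoters, none of which held it, made up most of the first set and few of the second. These counts therefore mix family with level and do not tie the motif to low levels. Matches from genes of different levels are shown with 10 bases on each side, from RefSeq on GRCm38.p6 in the direction of the gene, the motif or its reverse complement in capitals.
Ugt2b35 (4.90 and 6.37 TPM): ataaatctgaAATAATTAAtatttgcttt
Sult1d1 (1.09 and 1.27 TPM): cactgatcagTTAATAATTgactaagagt
Ugt1a1 (0.18 and 0.34 TPM): gggcacaatcAATCATTAActggttgcac
Sult2a3 (0.14 and 0.06 TPM): caagataatgTTAATGATTttttacttgc
Ugt2b38 (0 and 0 TPM): ctacgtaccaTTAATAATTgaacatgaca
The windows are chr5:87000700-87000728, chr5:87569066-87569094, chr1:88211904-88211932, chr7:14123080-14123108 and chr5:87424414-87424442.

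Of the other motifs, TGACNNNGC, the core of the antioxidant response element bound by NRF2, was in 3 of 66 member promoters (4.55%, against 12.4% of all), those of Gsta3, Gstm5 and Gstm7. GCGTG, the core of the element bound by the aryl hydrocarbon receptor, was in 13 (19.7%, against 32.4%). CAAAGTCCA, a site for HNF4 alpha, was in 1 (1.52%, against 0.475%), and TATAAA was in 14 (21.2%, against 13.6%). Promoters were in the table for 55 members. A match is a description of the sequence and not a binding site, and a missing match says only that the letters are not in the window.

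The same transcript led in both libraries for each of the 14 members at 5 TPM or more in both, and all 14 main transcripts were protein-coding. It held 90% or more of the gene in both libraries for 11 of them, and 4 of the 14 have a single transcript. Gsta3 was the most divided, with 56.5% and 54.4% in its main transcript and 38.9% and 40.0% in a second one. The main transcript of Gstm4 held 66.6% and 69.5%. That of Gstm5 held 73.0% in replicate 1 and 83.1% in replicate 2, with 18.2% and 12.0% in the next.

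The libraries were compared gene by gene. Each gene with at least 10 counts in total was tested with a two-sided exact conditional binomial test and Benjamini-Hochberg adjustment at 0.05, on counts scaled by TMM (trimmed mean of M values), and ratios are replicate 1 over replicate 2. This test knows counting error alone, so at this depth it passes very small differences. Of 18572 genes, 20.4% were higher in replicate 1 and 19.9% higher in replicate 2. Of the 42 members tested, 4 (9.52%) were higher in replicate 1 and 16 (38.1%) higher in replicate 2. Scaling by library totals instead gave 2757 and 5649 of all genes and 2 and 18 of the members. The median log2 ratio was -0.09 for the 34 members with at least 100 counts, against -0.01 for all such genes. By family, 2 of 20 Gst, 1 of 13 Ugt and 1 of 9 Sult genes were higher in replicate 1, and 9, 7 and 0 were higher in replicate 2.

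A difference of 1.5-fold or more that also passed the test was found for 4 of the 42 members (9.52%), against 8.67% of all genes tested. A ratio of that size without passing was seen for 4 more, Gsta2, Sult2a3, Sult2b1 and Sult4a1. Ugt1a9, with 19.3 counts in replicate 1 and 58.5 in replicate 2, had a log2 ratio of -0.93 (exact 95% interval -1.76 to -0.17), at an adjusted p of 0.0355 in the exact binomial test. Ugt1a1, with 44.6 and 121 counts, had -0.75 (-1.28 to -0.25), at an exact binomial adjusted p of 0.0077. Both were lower in replicate 1. Gsto2 had 21 and 14 counts and a log2 ratio of 1.26 (0.22 to 2.35, exact binomial adjusted p of 0.0361). Ugt1a5 had 18.9 and 10.4 counts and 1.60 (0.43 to 2.87, exact binomial adjusted p of 0.0116). All 4 were under 0.4 TPM in both libraries, and 3 of them are Ugt1a genes whose counts carry the posterior SDs given above, which the test leaves out.

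Among members at 1 TPM or more in both libraries, the ratios stayed within 1.5-fold. Gstm3 had the widest, a log2 ratio of -0.54 (-0.72 to -0.36), followed by Gstt3 at -0.46 (-0.59 to -0.33). For Gstp1 it was -0.13 (-0.16 to -0.10), for Gstm1 -0.10 (-0.13 to -0.07) and for Ugt2b34 -0.10 (-0.12 to -0.07). Gsta4 was the only one of this level past the test in the other direction, at 0.13 (0.05 to 0.22). The intervals of Gstm5, at 0.04 (-0.00 to 0.08), of Ugt1a6a, at -0.01 (-0.13 to 0.11), and of Sult1a1, at -0.05 (-0.21 to 0.10), include 0. Markers of other cells also moved. All 4 granulocyte markers (summed 838 TPM in replicate 1 and 1220 in replicate 2), 5 of 6 macrophage markers (149 and 192) and 9 of 10 hepatocyte markers (21266 and 24354) were higher in replicate 2, while all 7 skeletal muscle and all 5 cholangiocyte markers were higher in replicate 1. Of the pancreas markers all 4 tested (of 5, summed 2.95 and 0.81 TPM), and of the skin markers 3 of 4 tested (of 5, summed 3.74 and 0.76 TPM), were also higher in replicate 1. Over all genes tested, 20.4% were higher in replicate 1 and 19.9% in replicate 2. The part of these markers' cells in the members' ratios was not tested.

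A negative binomial test was also run. With the common dispersion that edgeR estimates from the pair, a biological coefficient of variation of 0.187, the exact form of this test passed 0 of 42 members after Benjamini-Hochberg adjustment, against 2.64% of all genes tested. At an unadjusted p under 0.05 it passed 1 member, Ugt1a5, and 1119 of all 18572 genes. Since the dispersion came from the same pair whose difference was tested, the count of 0 says little about the members.

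**Figure D5:**
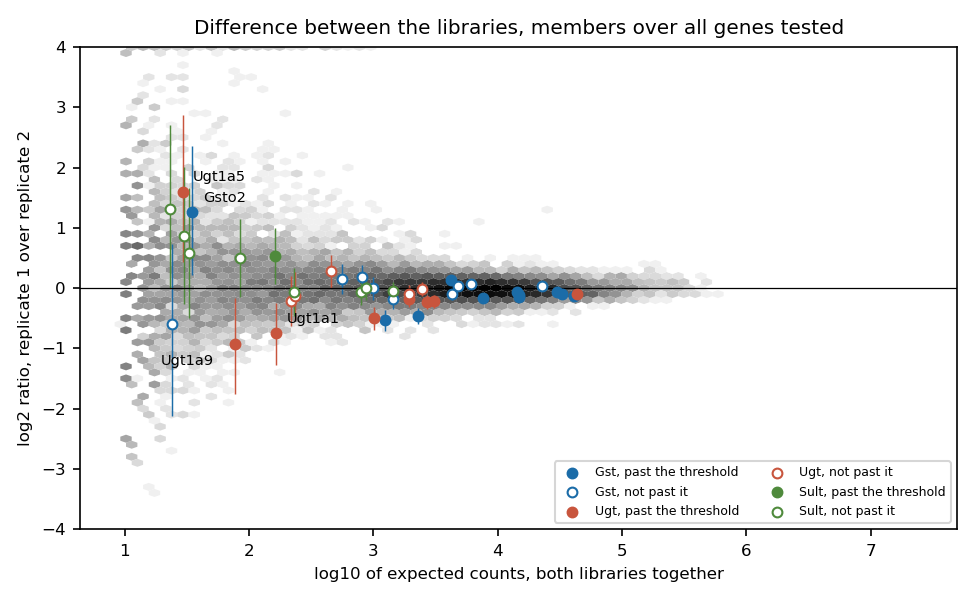
Log2 ratio of replicate 1 over replicate 2 against the log10 of expected counts in both libraries, with all genes tested as grey hexagons (darker for more genes, on a log scale, ratios beyond 4 drawn at the edge) and the 42 members as coloured points with exact 95% intervals, filled where past the threshold. The members lie inside the cloud of all genes, and the 4 named genes with a 1.5-fold difference lie at the low-count end.

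For the lists here and below, the shares to set beside the counts are those over all genes. Of protein-coding genes 50.6% passed 1 TPM in both libraries, and of all genes tested 20.4% were higher in replicate 1 and 19.9% in replicate 2. No list was tested against these shares. Of 16 listed genes that make, use or break down glutathione, 13 passed 1 TPM in both libraries, and 4 were higher in replicate 1 and 6 higher in replicate 2. Gpx1, the peroxidase that spends glutathione on hydrogen peroxide, was at 3047 and 3425 TPM, Gpx4, which acts on lipid hydroperoxides, at 371 and 394 TPM, and Gclm, a subunit of the enzyme that limits glutathione synthesis, at 90.6 and 114 TPM. The cystine transporter Slc7a11 was the lowest, at 0.07 and 0.05 TPM. Of 9 microsomal or other Gst-related genes, 7 passed 1 TPM. Mgst3 was at 260 and 285 TPM and Mgst1 at 108 and 112 TPM, levels like those of Gstp1 and Gstm5. Clic1, an ion channel protein with a Gst fold, was at 66.4 and 79.8 TPM, and Gdap1 was the lowest at 0.02 and 0.01 TPM. None of these 9 was higher in replicate 1 and 4 were higher in replicate 2.

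The genes listed for supply of the other co-substrates all lay below Gpx1, Gpx4 and Gclm, of which the first 2 use glutathione. For UDP-glucuronic acid, 10 of 11 listed genes passed 1 TPM, with 1 higher in replicate 1 and 3 in replicate 2. Hk1, which phosphorylates glucose, led at 50.3 and 53.0 TPM, then Pgm1 at 23.2 and 25.6 TPM and Slc35b1 at 19.6 and 24.3 TPM. For PAPS, 8 of the 9 genes with a row passed 1 TPM, with 2 higher in each library. The sulfate transporter Slc26a1 was at 11.3 and 12.7 TPM, the PAPS transporter Slc35b2 at 10.2 and 12.3 TPM and Bpnt1, which clears the spent donor, at 11.0 and 11.5 TPM. The sulfate transporter Slc13a1 had 0 counts in both.

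Other conjugating enzymes were mixed. Of 15 genes, 8 passed 1 TPM, and of the 14 tested 1 was higher in replicate 1 and 3 in replicate 2. Gamt, which makes creatine, was at 30.1 and 36.0 TPM and Tpst2, which sulfates protein tyrosines, at 13.5 and 15.3 TPM. Nat8 was lowest at 0.01 and 0.04 TPM. Of the 5 hydrolases with a row listed as reverse enzymes, 4 passed 1 TPM, and 1 was higher in each library. Whether they act on products of the members was not examined. Gusb, the lysosomal beta-glucuronidase, was at 16.2 and 20.0 TPM, Ggh at 3.90 and 4.73 TPM and Arsb at 3.56 and 4.21 TPM. Sulf2 was lowest by its mean, at 2.39 in replicate 1 and 0.72 TPM in replicate 2.

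Of 17 regulators, the factors that control such genes, 15 passed 1 TPM, with 1 higher in replicate 1 and 8 in replicate 2. Nfe2l2, which encodes NRF2, was at 25.8 and 31.4 TPM, and its partners Mafg and Mafk were at 24.3 and 28.1 TPM and at 18.8 and 22.1 TPM. Nr1i3, which encodes the receptor CAR, an inducer of Ugt and Sult genes in adult liver, was lowest at 0.56 and 0.85 TPM. Of 11 transporters of conjugates, 8 passed 1 TPM, and of the 9 tested 1 was higher in replicate 1 and 4 in replicate 2. Abcg2 was at 57.6 and 71.5 TPM and Abcc5 at 14.3 and 15.6 TPM. The uptake carrier Slco1a4 was lowest, with 2 counts in replicate 1 and 0 in replicate 2.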

How the data were processed

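RNA was measured in 2 libraries of 1 group. Per the submitters' notes beside the files, the mm10 tables use GENCODE M4 and the mm9 tables ENSEMBL V65. Alignment and quantification are steps not given in the sources used here. Expected counts, the TPM values and the FPKM values per gene and transcript were made by the authors, TPM over every row with spike-ins included. The percent of each gene held by a transcript was deposited by the authors. The score values used are the deposited posterior SD of each count, the bounds of the TPM interval (level not stated) and the effective length. The mm9 junction counts were deposited as whole reads for both replicates together, and the mm9 values as RPKM.

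Genes were matched by identifier, version removed, to GENCODE M21; 42462 of 43346 had a symbol. Members, lists and tests were chosen with earlier results of these data known. Named are all members, and of each list the 3 highest and the lowest gene, apart from some that are not reported here. Genes with at least 10 expected counts in total, rounded, entered the exact binomial test; edgeR's quasi-likelihood test could not be fitted with 1 group. TMM came from edgeR 4.0.16, other size factors from DESeq2 1.42.0. The test was tested on simulated data. Coding identity is from global alignment of 1 transcript per gene; proteins were not used here, and coding sequence took their place. The motif TGAGTCA was added after values were seen. Bpnt2 and Sts of the lists had no row. Positions are those of GENCODE M21 on GRCm38; mm9 positions were not converted. Depth was 97174777 and 149348514 expected counts on mouse genes, of which members held 0.102% and 0.112%; a count of 0 allows up to 3 counts. Intervals are exact 95% Clopper-Pearson intervals. Alternatives were other thresholds, FPKM, other scalings and filters, a negative binomial test and each library left out. Software: scipy 1.17.1, biopython 1.88, matplotlib 3.10.9, pandas 2.3.3 and numpy 2.4.6 under Python 3.11.15, with R 4.3.3.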

Additional observations from a re-analysis of the deposited data

Results flagged for a closer look

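At the Ugt1 locus, 8 junctions listed as unannotated had more reads than the 3 that a count of 0 allows (mm9, chromosome 1, both replicates together). Of these, 1 ends at common exon 2, the intron 90024185 to 90111618 with 5 reads, which starts between the first exons of Ugt1a6b and Ugt1a6a. An intron with the same end that starts at 90104134 had 3 reads, and together they are 8 of the 198 reads into that exon (4.04%, exact 95% interval 1.76 to 7.81). The intron 89999952 to 90003513 had 101 reads. Introns that start at 89999952 and at 90031509 had 66 reads each to 90035045, and 13 reads each to 90111616, which is 2 bases before common exon 2. Both starts had the same split by replicate field, 18 and 48 reads to 90035045 and 4 and 9 to 90111616. Whether the same reads were listed at both starts was not tested. The introns 89991879 to 89992072 and 89999951 to 90004257 had 5 reads each. A field named C in the list was 0 for every intron above that starts at 89999951, 89999952 or 90031509. It was 1 for the annotated junctions of the locus. There were no control samples to set them against, and their sequences were not examined.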

How the results depend on the processing

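No paired analysis was possible because the series holds 1 group. The difference between the libraries gives no value with a library left out. Members detected numbered 14 at 5 TPM, against 27 at 1 TPM, and 27 to 28 with 1 library left out. The summed level was 1080 in FPKM, against 904 in TPM, and 832 to 975 TPM with 1 library left out. The share of the Gst genes was 76.9% of expected counts, against 90.6% of TPM, and 90.6% to 90.7% with 1 library left out. With the negative binomial test 0 members were past the threshold, against 20; Ugt1a9, Ugt1a1, Gsto2 and Ugt1a5 kept their direction under each scaling and filter run that held them and lost significance in that test alone, at adjusted p of 1, 1, 1 and 0.474, and all but Ugt1a1 were left out by a filter of 100 counts. The 5 other scalings and filters gave 19 to 21 members. Main transcripts held 90% or more for 21 of 27 members at 1 TPM, against 11 of 14 at 5 TPM. At 5 TPM they did so for 13 of 17 members with replicate 1 left out and for 11 of 14 with replicate 2 left out. The share of Ugt1a6a was 53.7% with junctions of at least 5 reads and 44.6% by TPM, against 51.0%. The 10 highest members were the same 10 on either log scale. Depth limits the members under 1 TPM, and the junction values rest on 198 reads for the Ugt1 locus.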
